A study of Mus musculus with 8 samples.

Results

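MAP kinase phosphatases of the DUSP family and the Sprouty proteins are the brakes that cells put on ERK, JNK and p38 signalling. A DUSP removes phosphate from both the threonine and the tyrosine of an activated MAP kinase. Sprouty proteins sit higher up and restrain the Ras and Raf steps that feed ERK. Many of these genes are transcribed in response to ERK itself, so their RNA forms a feedback loop, and in T cells the loop is engaged when the antigen receptor is triggered. RNA level says nothing by itself about how active the phosphatase protein or its kinase is.

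The genes described here are 10 rows of the count table, taken by symbol: Dusp1, Dusp2, Dusp4, Dusp5, Dusp6, Dusp10, Dusp16, Dusp22, Spry1 and Spry2. They are 10 of 49040 genes in the table, and all 10 passed the filter on low counts that left 14672 genes for testing. The cells were naive CD4 T cells of C57BL/6J mice, either wild type or Ikzf4-/- (Eos KO), with 4 libraries each. Both groups had been activated on plates coated with antibodies to CD3 and CD28, in Th1-polarising medium, and were harvested at 72 h. Ikzf4 encodes Eos, a zinc-finger factor of the Ikaros family. The labels do not describe the knockout allele, the sex or age of the mice, or what the library numbers 1 to 4 stand for, so p-values measure the spread between libraries, which may be partly technical.

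Library totals ran from 25227017 to 53149322 counts, and the 10 genes together took 0.0499% to 0.0773% of them. Ikzf4 stood at 41.1 to 54.9 CPM (counts scaled to a common library total) in wild type against 2.14 to 4.88 CPM in the knockout, in the direction of the labels. T cell identity genes were plentiful in both groups: the 10 CD4 T cell markers summed to 3740 to 4510 CPM in wild type against 3670 to 4540 CPM in the knockout, and none was called. Xist was at 503 and 588 CPM in the 2 libraries numbered 2 and at 0.57 CPM or less in the other 6, so sex differs between pairs and not within them. Same-numbered libraries of the 2 genotypes deviated together from their group means (correlation across genes 0.61 to 0.73), and they are treated as pairs where a blocked fit is named. Differently numbered libraries reached at most 0.54, between numbers 3 and 4, beside 0.61 within number 4. In whole-culture RNA, fewer cells of a type and less RNA per cell cannot be told apart.

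Without the block, edgeR called 0 of the 10 genes at an adjusted p under 0.05, against 0.157% of all genes tested (0.0545% higher and 0.102% lower). At an unadjusted p under 0.05 stood 5 of the 10, against 8.1% of all genes. DESeq2 without the block called 2 of the 10, Dusp6 and Dusp5, against 1.47% of all genes. With the replicate number as a block, edgeR called 4 of the 10, against 6.71% of all genes. Dusp6 and Spry1 rose in the knockout (2.69% of all genes did), and Dusp5 and Dusp1 fell (4.01% of all genes did). The other 6, Dusp2, Dusp4, Dusp10, Dusp16, Dusp22 and Spry2, were not called. Differences below are knockout over wild type on the log2 scale with their SE, from the blocked fit unless stated. The median difference of the 10 genes was -0.14 in that fit, beside 0.003 over all genes tested, and the 4 called genes moved in both directions.

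**Figure D1:**
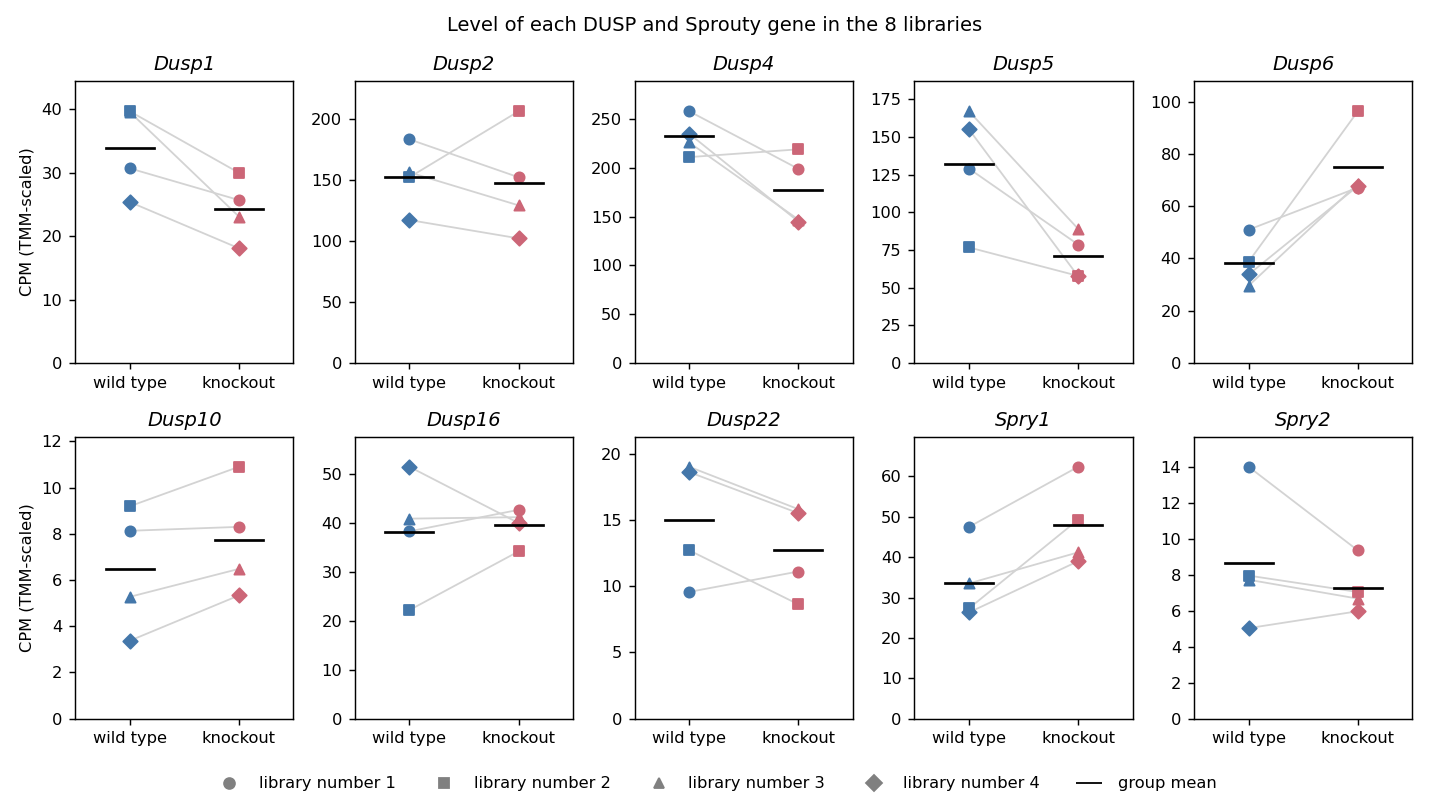
CPM of each of the 10 genes (vertical axes, linear and starting at 0) in the 4 wild-type and 4 knockout libraries; the marker gives the library number, grey lines join same-numbered libraries and bars are group means. Dusp6 is the one gene whose groups do not overlap, with 29.6 to 51.0 CPM in wild type against 67.1 to 96.3 CPM in the knockout.

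The 4 called genes differ in the sequence just upstream of their starts. Of the 10 genes, 9 have a promoter in the RefSeq table (GRCm38.p6); Dusp4 has none there. The bases from -200 to -51 relative to the RefSeq start are shown 5′ to 3′ on the strand of the gene for these 4, since 2 of them rose and 2 fell. Capitals mark matches to the motifs searched on both strands.
Dusp5: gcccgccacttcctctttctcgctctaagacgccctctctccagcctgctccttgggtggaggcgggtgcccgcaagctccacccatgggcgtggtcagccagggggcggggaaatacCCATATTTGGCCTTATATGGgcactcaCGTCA
Dusp1: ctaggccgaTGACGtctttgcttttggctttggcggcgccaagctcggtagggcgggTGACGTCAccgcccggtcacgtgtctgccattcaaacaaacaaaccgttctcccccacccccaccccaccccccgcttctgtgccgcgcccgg
Dusp6: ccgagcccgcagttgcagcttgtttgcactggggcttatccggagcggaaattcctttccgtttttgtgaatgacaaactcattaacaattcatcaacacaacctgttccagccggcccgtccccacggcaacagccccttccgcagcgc
Spry1: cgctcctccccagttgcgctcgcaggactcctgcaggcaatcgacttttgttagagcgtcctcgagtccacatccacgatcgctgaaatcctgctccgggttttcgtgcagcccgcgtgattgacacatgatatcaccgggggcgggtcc

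These stretches lie at chr19:53528945-53529094 for Dusp5 and chr17:26508523-26508672 (minus strand) for Dusp1. Those of Dusp6 and Spry1 lie at chr10:99263031-99263180 and chr3:37639747-37639896; genes other than Dusp1 are on the plus strand. In GENCODE M21 the Dusp5 stretch overlaps exons of AC137853.2 and the Spry1 stretch exons of Gm42922, both on the opposite strand. Dusp5 has a pair of adjoining SRF CArG boxes, from -82 to -73 and from -72 to -63, a motif that 1.47% of the 32851 RefSeq promoters hold in the 250 bases before the start. It also has the partial CRE TGACG on the minus strand from -55 to -51. Dusp1 has the full CRE TGACGTCA from -143 to -136, present in 1.55% of promoters, and a partial CRE TGACG (17.8% of promoters) from -191 to -187. The full site holds the partial one on both strands. CArG boxes bind the serum response factor SRF, and CRE sites bind CREB and related factors; both kinds of site serve immediate early transcription. In the 250 bases of Dusp6 and of Spry1 none of the motifs searched was matched. These also included AP-1 (TGANTCA, 6.75% of promoters), the STAT site TTCNNNGAA (7.02%), the Ikaros-type string TGGGAA (21.6%), the ETS-type string CCGGAA (12.0%) and TATAAA (12.4%). The shorter strings GGAA and GGGAA were not searched. GGAA does occur in the Dusp5 and Dusp6 stretches shown, and GGGAA in that of Dusp5. Among the other 5 promoters Dusp2 holds TGGGAA on the minus strand and Dusp16 a partial CRE. A match is a description of letters in a window, and no match says nothing of binding elsewhere.

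The largest rise among the 10 was that of Dusp6, which encodes a cytoplasmic phosphatase with a strong preference for ERK and is itself a standard readout of ERK activity. Its level in wild-type libraries 1 to 4 was 51.0, 38.8, 29.6 and 33.9 CPM, and in knockout libraries 1 to 4 it was 67.1, 96.3, 68.6 and 67.7 CPM. The groups did not overlap. That was so for 4.96% of all genes tested, 2.47% higher and 2.49% lower in the knockout, and for none of the other 9 genes here. Of the 4 knockout values 3 were nearly alike, while library 2 stood above them. The group means were 38.3 ± 9.24 and 74.9 ± 14.3 CPM (SD, n = 4 each). Dusp6 rose by 0.98 ± 0.142 (1.97-fold; edgeR with the block, adjusted p = 0.00599), and was higher in all 4 pairs by 0.40 to 1.31. Without the block the difference was 0.97 ± 0.191 with adjusted p = 0.175. In the 2-sided exact permutation test over libraries p was 0.0286, the smallest that 4 against 4 can give. The authors' deposited table, made with DESeq2, gives Dusp6 an adjusted p of 0.00172. The blocked call held when any pair was left out (edgeR adjusted p from 0.00415 to 0.0261).

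Dusp6 shares its chromosome with the targeted gene. It lies on chromosome 10 from 99263231 to 99267489 (GRCm38, plus strand, GENCODE M21). Ikzf4 spans 128630843 to 128645991 on the minus strand, and its nearer end is 29.4 Mb from Dusp6. Among the 20 other tested genes within 5 Mb of Dusp6, 2 were called in the blocked fit, 1 in each direction. Within 5 Mb of Ikzf4 4 of 87 genes were called (4.6%), and between Dusp6 and Ikzf4 7 of 133 were (5.26%). On chromosome 10 without Dusp6 and Ikzf4, 53 of 678 genes were called (7.82%), and over all genes with a position 6.7% were. Whether DNA linked to the knockout allele has a part in the Dusp6 difference was not tested.

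Dusp5 moved against Dusp6. It encodes the nuclear counterpart of Dusp6, an inducible phosphatase that also acts mainly on ERK. Its level in wild-type libraries 1 to 4 was 129, 76.7, 167 and 155 CPM, and in knockout libraries 1 to 4 it was 78.6, 57.8, 89.0 and 57.6 CPM. Wild-type library 2 was far below the other wild-type libraries and fell among the knockout values, so the groups overlapped. The group means were 132 ± 39.9 and 70.7 ± 15.7 CPM (SD, n = 4 each). Dusp5 fell by 0.86 ± 0.143 in the blocked fit (1.82-fold; edgeR adjusted p = 0.0101), and was lower in all 4 pairs, by between 0.41 and 1.42. Without the block the difference was -0.90 ± 0.248 with adjusted p = 0.348, and the 2-sided exact permutation p was 0.0857. The authors' deposited table gives an adjusted p of 0.0448. The blocked call held when any pair was left out (edgeR adjusted p from 0.00518 to 0.0419).

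Because both proteins act on ERK, in different compartments, the balance of their transcripts was also read inside each library, where no scaling between libraries enters. The Dusp6 count was 0.396, 0.505, 0.178 and 0.22 times the Dusp5 count in wild-type libraries 1 to 4. It was 0.854, 1.67, 0.771 and 1.18 times the Dusp5 count in knockout libraries 1 to 4. The groups did not overlap, and the ratio was 2.16 to 5.36 times as high in the knockout library of each pair. Of 5 such ratios computed, chosen after the values were seen and so given with no test, the groups were separate in 3. In the other 2 they overlapped: Dusp4 over Dusp5 was 1.36 to 2.75 in wild type and 1.65 to 3.79 in the knockout, and Dusp1 over Dusp2 was 0.167 to 0.261 and 0.146 to 0.179.

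**Figure D2:**
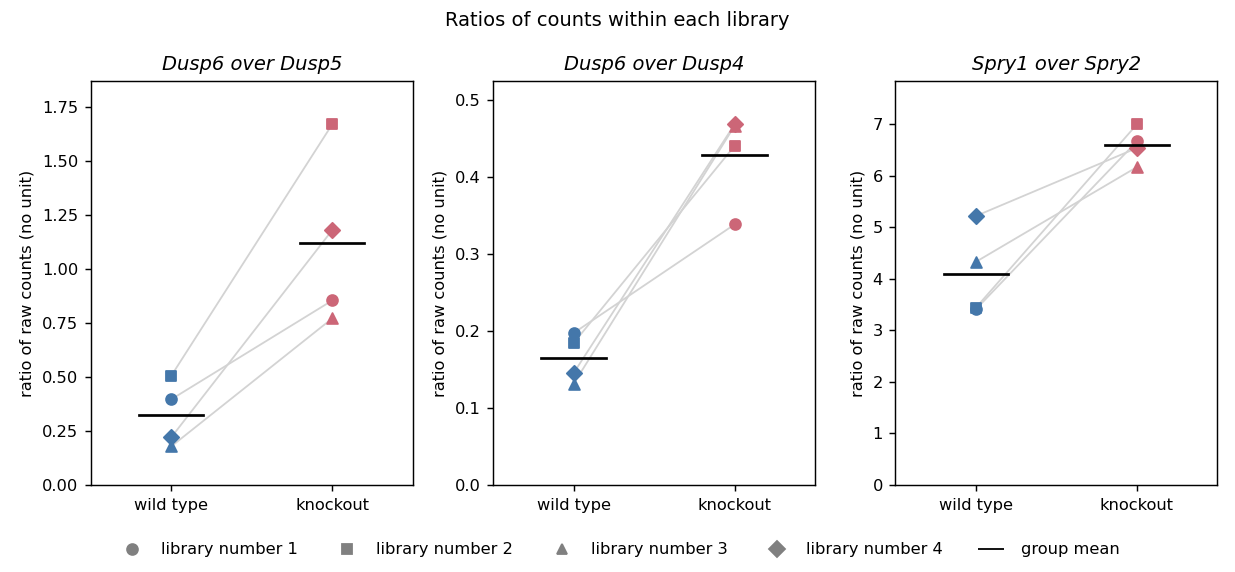
Ratios of raw counts within each library (vertical axes, no unit, linear and starting at 0) for Dusp6 over Dusp5, Dusp6 over Dusp4 and Spry1 over Spry2; markers give the library number, grey lines join same-numbered libraries and bars are group means. Dusp6 over Dusp5 runs from 0.178 to 0.505 in wild type, and in the knockout from 0.771 to 1.67, and the groups are also separate in the other 2 panels. The ratios of Dusp4 over Dusp5 and of Dusp1 over Dusp2, not drawn, overlap between groups.

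The remaining inducible nuclear phosphatases are Dusp1, Dusp2 and Dusp4. Dusp1 encodes the founding member, an immediate early product that acts on p38 and JNK as well as ERK. Its level was 30.7, 39.7, 39.6 and 25.4 CPM in wild-type libraries 1 to 4 and 25.7, 30.0, 23.1 and 18.1 CPM in knockout libraries 1 to 4. The groups overlapped, but within each number the knockout library was the lower one, as in 14.8% of all genes tested. Dusp1 fell by 0.48 ± 0.102 in the blocked fit (1.4-fold; edgeR adjusted p = 0.0282), from 33.8 ± 7 to 24.2 ± 4.99 CPM (SD, n = 4 each). The call was lost without pair 3 (edgeR adjusted p = 0.175) or pair 4 (0.0801), and without the block adjusted p was 0.563.

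Dusp4 encodes a nuclear phosphatase of ERK and JNK that is induced by the T cell receptor. Its level was 258, 211, 226 and 235 CPM in wild-type libraries 1 to 4 and 199, 219, 147 and 145 CPM in knockout libraries 1 to 4. Knockout library 2 was the exception, reaching wild-type levels, while knockout libraries 3 and 4 were the lowest of the 8. The difference was -0.41 ± 0.118 and was not called (edgeR with the block, adjusted p = 0.0796; 0.547 without it). Leaving out pair 2 gave -0.56 with edgeR adjusted p = 0.00548, and DESeq2 with the block gave adjusted p = 0.017. The count of Dusp6 over that of Dusp4 was 0.131 to 0.197 in wild type, against 0.338 to 0.468 in the knockout.

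Dusp2 encodes a nuclear phosphatase first found in activated lymphocytes. It ran from 117 to 183 CPM in wild-type libraries and from 102 to 206 CPM in knockout libraries, with means of 152 ± 27.0 and 147 ± 44.0 CPM (SD, n = 4 each). Its difference was -0.08 ± 0.12 (edgeR with the block, adjusted p = 0.764), lower in 3 pairs by 0.20 to 0.27 and higher in pair 2 by 0.44. The direction turned under 3 of the fits that left out 1 library, and without pair 2 the blocked fit gave -0.25 with edgeR adjusted p = 0.0335. In Dusp4, too, pair 2 was the only pair that was not lower, but with a difference of just 0.05.

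Dusp10 and Dusp16 encode phosphatases that act on JNK and p38 more than on ERK, and Dusp22 encodes a small atypical phosphatase, known as a JNK pathway regulator and, in T cells, as a phosphatase of the kinase Lck. Dusp10 stood at 6.49 ± 2.66 CPM in wild type against 7.75 ± 2.42 CPM in the knockout. It was higher in the knockout library of all 4 pairs, by 0.03 to 0.65, as were 15.8% of all genes tested, and was not called (0.29 ± 0.14; edgeR with the block, adjusted p = 0.274). Dusp16 stood at 38.2 ± 12.1 and 39.5 ± 3.71 CPM (0.11 ± 0.142, adjusted p = 0.722). Its 4 wild-type libraries ranged from 22.2 to 51.5 CPM and its knockout libraries only from 34.2 to 42.7 CPM, and whether the 2 spreads differ was not tested. Dusp22 stood at 15.0 ± 4.60 and 12.8 ± 3.51 CPM (-0.22 ± 0.134, adjusted p = 0.397). Its libraries numbered 3 and 4 were the higher ones in both groups.

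Of the Sprouty genes, Spry1 was called and Spry2 was not, and the difference between them was not tested. Spry1, which restrains receptor signalling to Ras and ERK and is induced in T cells on activation, rose. Its level was 47.5, 27.3, 33.5 and 26.3 CPM in wild-type libraries 1 to 4 and 62.4, 49.3, 41.2 and 39.0 CPM in knockout libraries 1 to 4. Library 1 was the highest of its group in both genotypes, so the groups overlapped although each knockout library lay above its own partner. Spry1 rose by 0.53 ± 0.103 in the blocked fit (1.44-fold; edgeR adjusted p = 0.0205), from 33.6 ± 9.78 to 48.0 ± 10.6 CPM (SD, n = 4 each). The call was lost without pair 1 (edgeR adjusted p = 0.0575) or pair 4 (0.0636), and without the block adjusted p was 0.597.

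Spry2, the closely related inhibitor, stood at 8.66 ± 3.77 CPM in wild type against 7.26 ± 1.46 CPM in the knockout (SD, n = 4 each). Its difference was -0.20 ± 0.15 (edgeR with the block, adjusted p = 0.502), lower in 3 pairs and higher in pair 4. Inside each library the Spry1 count was 3.41, 3.44, 4.33 and 5.22 times the Spry2 count in wild-type libraries 1 to 4. In knockout libraries 1 to 4 it was 6.67, 7, 6.17 and 6.54 times the Spry2 count. Every knockout ratio exceeded every wild-type ratio; this pair of genes, too, was chosen with the values in view.

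**Figure D3:**
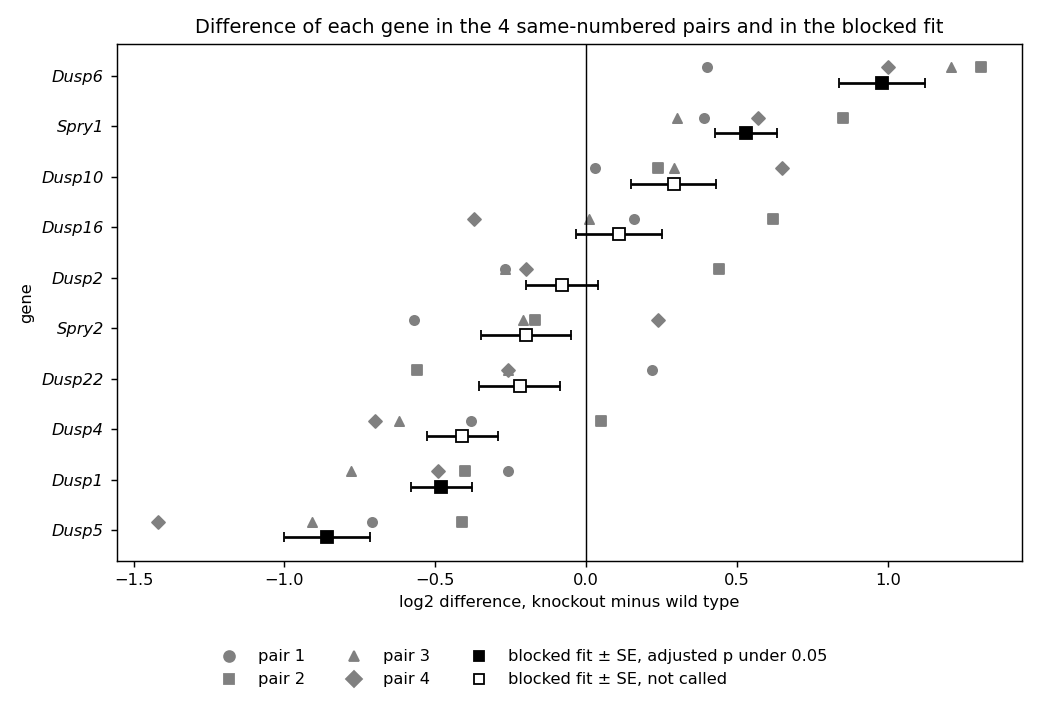
Log2 difference, knockout minus wild type (horizontal axis), of each gene in the 4 same-numbered pairs (grey markers) and in the blocked fit (squares with SE bars; filled where the adjusted p is under 0.05). Dusp6, Spry1 and Dusp10 lie above 0 in all 4 pairs, and Dusp1 and Dusp5 below 0 in all 4.

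Of the 10 genes, 5 differed the same way in all 4 pairs, 3 higher and 2 lower, against 30.6% of all genes tested. The level also differed between library numbers. A range over 4 numbers tends to be wider than a difference between 2 groups, so the values are set side by side only as a description. Averaged over both genotypes, levels differed between numbers by 0.31 (Dusp4) to 1.23 (Dusp10) on the log2 scale. For Dusp6 the range over numbers, 0.44, was smaller than the mean genotype difference of 0.98, and for Dusp4 it was 0.31 beside 0.41. For Dusp5 the 2 quantities were alike, 0.87 and 0.86. Number 4 was the lowest for Dusp1, Dusp2, Dusp10, Spry1 and Spry2, and number 2 was the lowest for Dusp5 and Dusp16.

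Levels can be set against each other only per length, here as CPM per kb of annotated exons. In wild type Dusp4 (84.9 ± 7.18), Dusp2 (75.9 ± 13.5) and Dusp5 (53.3 ± 16.2) formed the top group, each overlapping the next. A gap followed, and then came Dusp6 (12.2 ± 2.95), Spry1 (11.6 ± 3.36) and Dusp1 (10.2 ± 2.13 CPM per kb), which overlapped. Below a second gap lay Dusp16, Spry2, Dusp22 and Dusp10, from 4.90 down to 2.13 CPM per kb, each overlapping the next. In knockout libraries Dusp5 (28.6 ± 6.33) and Dusp6 (23.9 ± 4.55 CPM per kb) overlapped, so the gap between them in wild type was no longer there, and the gap above lay between Dusp4 (64.8 ± 13.6 CPM per kb) and Dusp5. The second gap then lay below Spry1 (16.5 ± 3.64 CPM per kb). With the longest transcript as the length, a choice added after the data were seen, Dusp2 came before Dusp4 in wild type (94.0 and 84.9 CPM per kb), Dusp1 before Dusp6 (14.6 and 13.7 CPM per kb) and Dusp22 before Spry2 (4.96 and 4.16 CPM per kb). In the knockout, too, Dusp22 came before Spry2 (4.23 and 3.48 CPM per kb). The levels of Dusp16 and Dusp22 moved by over 1.5 times, Dusp16 to 7.49 CPM per kb in wild type and 7.74 CPM per kb in the knockout, so the order of the lower genes rests on the length used.

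**Figure D4:**
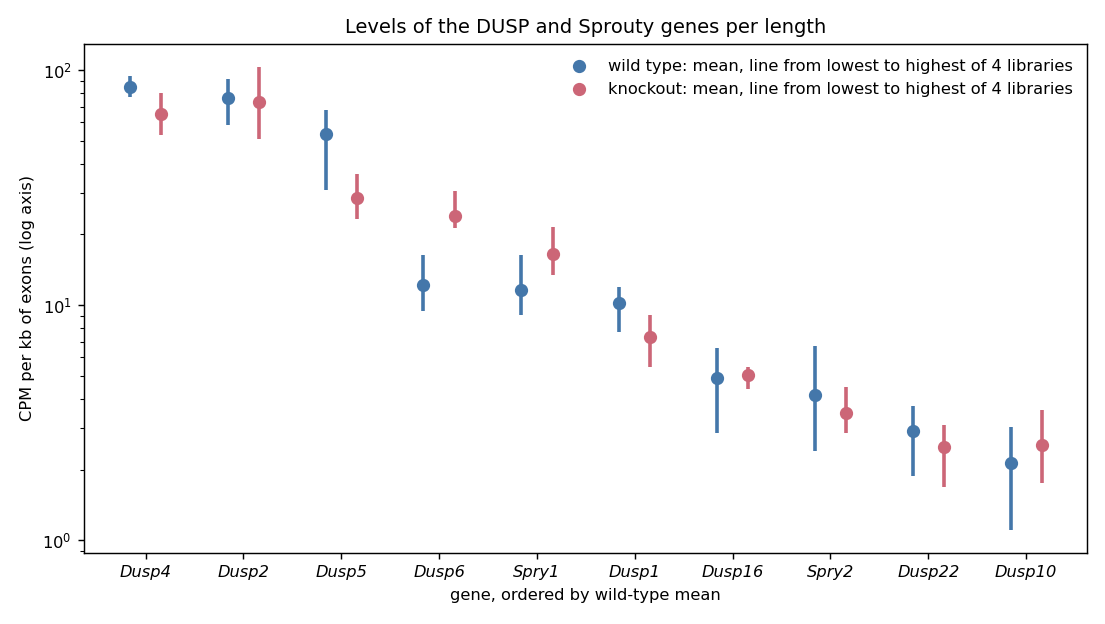
CPM per kb of exons (vertical axis, log scale) of the 10 genes, ordered by wild-type mean; points are means and lines run from the lowest to the highest of the 4 libraries of a group. In wild type Dusp5 stands apart from Dusp6, at 53.3 against 12.2 CPM per kb, and in the knockout their ranges, 23.3 to 36 and 21.4 to 30.7 CPM per kb, overlap.

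For Dusp5 and Spry1 the counts carry a limit set by neighbours on the opposite strand. In GENCODE M21, AC137853.2 covers 547 bases of Dusp5 exons (22.1%) and Gm42922 covers 710 bases of Spry1 exons (24.4%). The strand setting of the counting is not given in the sources used here, so reads of a gene and its antisense partner cannot be told apart. Gm42922 had 87 counts over the wild-type and 114 over the knockout libraries, beside 4753 and 6928 for Spry1. Under that symbol AC137853.2 is not among the genes counted, so no value of it can be set beside Dusp5. The exons of Dusp2, Dusp4, Dusp6, Dusp10, Dusp16, Dusp22 and Spry2 share no base with another gene, and those of Dusp1 share 11 bases with Ergic1.

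The rest of the pathway was read from 5 lists. Over all genes tested, the blocked fit called 2.69% higher and 4.01% lower. Among 12 measured further dual-specificity phosphatases (of 18 listed), 1 rose and 0 fell in the blocked fit, with a median difference of -0.02. The one was Dusp14, a negative regulator of T cell receptor signalling in mice, with 0.55 ± 0.103 (edgeR adjusted p = 0.0175), from 12.2 ± 3.72 to 18.0 ± 5.78 CPM. Dusp7, another cytoplasmic ERK phosphatase, stood at 26.7 and 23.5 CPM (-0.15 ± 0.112, adjusted p = 0.503). Among 18 measured further brakes on Ras and ERK (of 20), 1 rose and 2 fell, with a median of 0.01. Spred3, a Sprouty-related inhibitor, fell by 1.15 ± 0.24 (edgeR adjusted p = 0.0267), but its wild-type level ran from 1.55 CPM in library 2 to 35 CPM in library 3. Rasa3, a GTPase-activating protein that switches Ras and Rap off, fell by 0.77 ± 0.136 (adjusted p = 0.014), from 27.8 ± 7.73 to 15.9 ± 0.839 CPM. Its groups did not overlap, and 2.49% of all genes tested were lower in the knockout without overlap. Rasal1, of the same enzyme class, rose by 0.51 ± 0.119 (adjusted p = 0.0398).

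Unlike Spred3, the related Spry4, Spred1 and Spred2 were not called. Spry4 stood at 2.37 and 1.96 CPM, Spred1 at 40.4 and 48.6 CPM and Spred2 at 64.2 and 46.4 CPM in wild type and knockout. Against 6.71% of all genes called in the blocked fit, 1 of 23 measured genes in the Ras and ERK cascade fell and 0 rose (median -0.05). It was Rasgrp1, the exchange factor that loads Ras downstream of the T cell receptor, with -0.46 ± 0.0749 (edgeR with the block, adjusted p = 0.00916), from 114 to 81.4 CPM. Mapk3, which encodes an ERK kinase, was not called (-0.31 ± 0.0973, adjusted p = 0.103).

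In the p38 and JNK cascade, 3 of 23 measured genes rose and 2 fell (of 24 listed, median 0.04), against 2.69% and 4.01% of all genes tested. The p38 genes Mapk11 and Mapk12 rose by 0.34 ± 0.0763 and 0.79 ± 0.179 (edgeR with the block, adjusted p = 0.0344 and 0.0355). For Mapk11 the groups did not overlap, with 38 to 42.9 CPM in wild type against 46.2 to 54.6 CPM in the knockout. Of all genes tested, 2.47% were higher without overlap and 2.49% lower. Map3k20, an upstream stress kinase, rose by 0.46 ± 0.104 (adjusted p = 0.0365). Mapkapk2, the kinase that p38 activates, fell by 0.55 ± 0.0934 (adjusted p = 0.0114), from 432 ± 54.2 to 296 ± 42.0 CPM, also with no overlap between groups. Map3k5, a stress-activated kinase upstream of both pathways, fell by 0.39 ± 0.0901 (adjusted p = 0.0393).

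Of 28 measured transcripts that ERK commonly induces, 1 rose and 2 fell in the blocked fit, with a median of -0.09. Of all genes tested, 2.69% rose and 4.01% fell. Egr4 rose from 1.63 to 3.53 CPM (1.36 ± 0.332, edgeR adjusted p = 0.0462), and Ier3 and Phlda1 fell by 0.85 ± 0.205 and 0.53 ± 0.13 (adjusted p = 0.0453 and 0.0487). Egr1 stood at 96.1 ± 43.7 and 114 ± 49.3 CPM, Egr2 at 77.1 ± 40.5 and 102 ± 25.5 CPM and Fos at 13.3 ± 6.86 and 10.3 ± 4.06 CPM (SD, n = 4 each), and none of these was called. None of the 13 list genes called in the blocked fit was called without the block by edgeR, and each lost its blocked call when at least 1 pair was left out. Rasa3, Rasgrp1 and Mapkapk2 lost theirs only without pair 3 (edgeR adjusted p = 0.0659, 0.0746 and 0.0525). Rasal1, Egr4 and Phlda1 lost theirs whichever pair was left out (edgeR with the block, adjusted p from 0.0505 to 0.252).

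**Figure D5:**
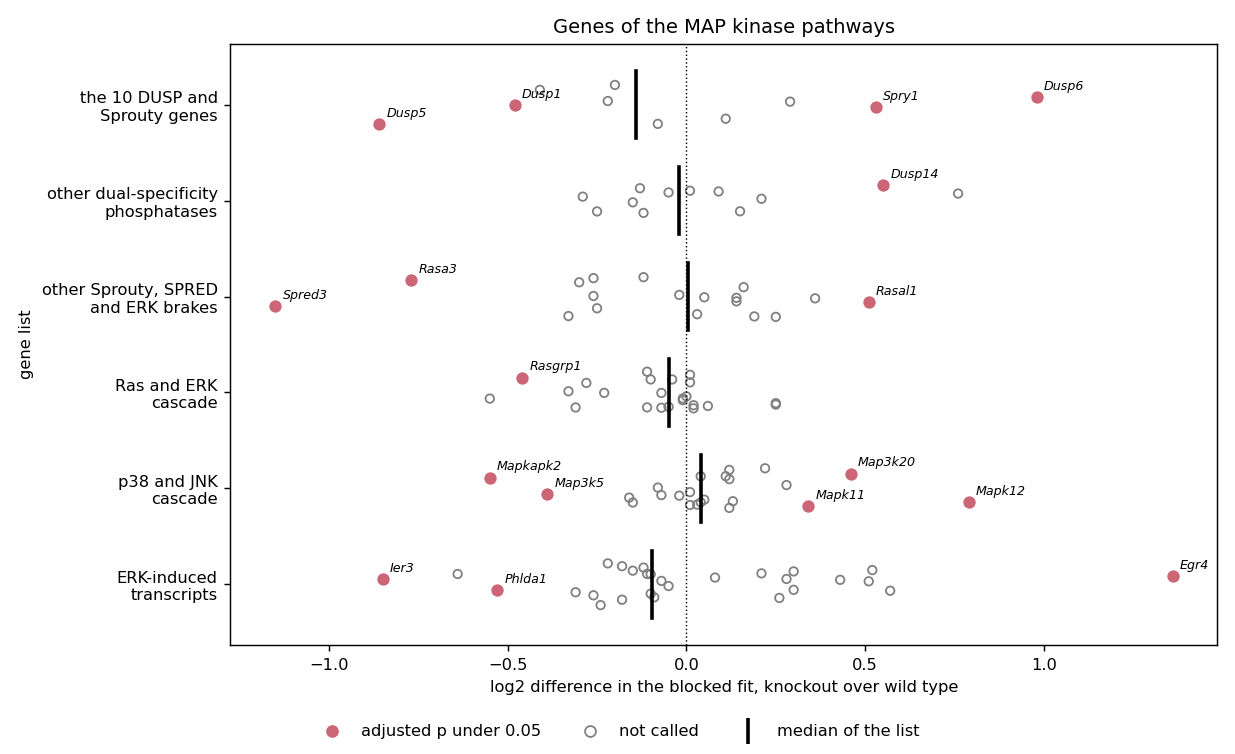
Log2 difference in the blocked fit, knockout over wild type (horizontal axis), of every measured gene in the 10 DUSP and Sprouty genes and in 5 further lists (rows); filled points have an adjusted p under 0.05 and bars are list medians. List medians lie between -0.14 and 0.04, and called genes stand on both sides of 0.

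Genes whose pattern over the 8 libraries was most like that of each called gene were found by the root mean square (RMS) difference of log2 CPM after each gene was centred, among 11100 named genes of at least 1 CPM. Among the nearest to Dusp6 were Nfix and Antxr2, at 0.177 and 0.228, where the median gene was at 0.589. The nearest to Dusp5 were Susd3, Pik3r5 and Lst1, at 0.101, 0.104 and 0.127 (median gene 0.613). Those nearest to Dusp1 were Pkp3, Trpv2 and Tcn2, at 0.0936, 0.103 and 0.126 (median gene 0.426). Those nearest to Spry1 were Slc37a1, Rsph3a and Gpr161, at 0.137, 0.142 and 0.154 (median gene 0.458). Among the 10 genes themselves the closest patterns were those of Dusp2 and Dusp4 (0.254) and of Dusp1 and Dusp4 (0.261), and Dusp6 was nearest to Spry1 (0.371).

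Markers of other cells were read beside these differences. Of the 7 gamma-delta T cell markers, 5 were measured and 4 fell in the blocked fit, and their sum ran from 21.3 to 74.5 CPM in wild type, against 7.37 to 21.7 CPM in the knockout. NK cell markers summed to 3.27 CPM or less in every library, with Ncr1 at 0 in all 8, and Klre1, the 1 measured of 5, fell. B cell markers summed to 1.11 to 1.80 CPM in wild type against 0.378 to 10.7 CPM in the knockout, mast cell and basophil markers to 0.0282 to 13.6 and 0 to 0.624 CPM, and CD8 markers to 4.44 to 12.7 and 3.32 to 16.2 CPM. Antigen-presenting markers summed to 76.2 to 119 CPM in wild type against 81.0 to 139 CPM in the knockout, with Cd74 the 1 called gene among 3 measured. Cd74 rose by 0.74 ± 0.115 (edgeR with the block, adjusted p = 0.00781). H2-Aa and H2-Ab1 went the other way and were not called (-0.45 ± 0.291 and -0.51 ± 0.21). H2-Ab1 ran from 3.24 to 99.8 CPM within wild type. Of the 5 Th1 markers, Ifng fell and the other 4 were not called. These calls are from the blocked fit, in which 2.69% of all genes tested rose and 4.01% fell. Without the block edgeR called none of the measured markers. The part of these cells in the DUSP and Sprouty differences was not tested.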

How the data were processed

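The authors deposited whole-number read counts per gene symbol for 8 libraries, and per the file headers the same table holds their DESeq2 comparison: log2 fold changes of wild type over knockout with SE, p-values and adjusted p-values, a mean of scaled counts over libraries (signal) and the Wald statistic (score). Per the submitters' processing notes GRCm38 was the build and the tools were DESeq2, STAR 2.5.2, Subread 1.5.2 and its featureCounts. Which annotation and strand setting were used, and how multimapping reads were counted, is not given in the sources used here.

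From the counts, edgeR 4.0.16 (R 4.3.3) was fitted to all genes that passed its filter on low counts, with TMM factors, the quasi-likelihood test and Benjamini-Hochberg adjustment over 14672 genes (threshold 0.05). Genotype was the only term of the main fit. The fit with the replicate number as a block is given beside it, because same-numbered libraries correlated in all 4 pairs (0.62, 0.73, 0.73 and 0.61); the pairing comes from these values, since the labels state none. CPM uses the TMM factors, and log2 CPM a prior count of 2. Lengths and positions are from GENCODE M21 on GRCm38, promoters from RefSeq (GRCm38.p6). Counts of any pair of same-group libraries differed by more than sampling noise (chi-square per degree of freedom 15.9 or more). The fits were tested on simulated data. Alternatives were other size factors, filters, DESeq2 1.42.0, the block, and leaving out libraries or pairs.

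The 10 genes, the lists and the rules were chosen with earlier results of these data known. Named genes are the 10, Ikzf4, up to 4 genes per list and direction called in the blocked fit, 9 fixed pathway genes, and the 3 nearest patterns to each called gene; unnamed gene models and pseudogenes are left out of the last. Gene models and markers, named beyond these, were chosen after their values were seen. Some genes that this rule names are not reported here.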

Additional observations from a re-analysis of the deposited data

Results flagged for a closer look

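Dusp6 in knockout library 2, at 96.3 CPM, stood far above the other 3 knockout libraries, which lay between 67.1 and 68.6 CPM: its gap to the nearest of them was 0.951 of the whole range of the group, above Dixon's critical value for 4 samples. It was the only such library among the 20 groups of 4 that the 10 genes give, and chance flags about 1 in 20. Without the pair numbered 2, Dusp6 was still higher in the knockout, by 0.86 on the log2 scale (edgeR with the block, adjusted p = 0.0161).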

How the results depend on the processing

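The fit without the block called 8 genes higher and 15 lower over the whole table. Of the 200 differences recomputed for the 10 genes under 20 alternatives, 194 kept their direction and 6 turned: Dusp2 without wild-type library 1 (0.05) or knockout library 3 (0.01) or 4 (0.09), Spry2 without wild-type library 1 (0.07), and Dusp16 without wild-type library 2 (-0.14) or, with the block, without pair 2 (-0.06). With 1 library left out and no block, Dusp2 ran from -0.25 to 0.09, Dusp16 from -0.14 to 0.22 and Spry2 from -0.45 to 0.07. The cause of these turns was not tested. DESeq2 size factors in place of TMM moved the median of all genes by -8.1e-05.

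Counts are given as higher and lower in the knockout. Of the 10 genes, DESeq2 called 1 and 1, the replicate block 2 and 2, the block with DESeq2 size factors 2 and 2, DESeq2 with the replicate block 2 and 3, and the block with no filter 2 and 3. Over all genes these counts were 66 and 149, 395 and 589, 393 and 598, 565 and 787, and 851 and 1273. Leaving out 1 library without the block gave 0 and 0 of the 10 genes, and 7 to 9 and 7 to 15 of all genes. Leaving out 1 pair with the block gave 1 to 2 and 1 to 4 of the 10 genes, and, without pairs 1 to 4, 250, 529, 144 and 199 of all genes higher and 372, 908, 254 and 330 lower.

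For the 5 lists the fit without the block called none. DESeq2 called 0 and 1 of the further brakes and 1 and 1 of the p38 and JNK genes. With the block, under each of edgeR, edgeR with DESeq2 size factors, DESeq2 and no filter, the further phosphatases had 1 and 0, and the p38 and JNK genes 3 and 2. The further brakes had 1 and 2 (4 lower with no filter). The Ras and ERK genes had 0 and 1 (1 and 1 with DESeq2, 1 and 4 with no filter). The ERK-induced transcripts had 1 and 2 (4 and 2 with DESeq2, 5 and 2 with no filter). Leaving out pairs gave 0 to 1 and 0, 0 to 3 and 0 to 2, 0 and 0 to 5, 0 to 1 and 0 to 3, and 0 to 2 and 0 to 2 in the same order of lists.

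Of 20 levels per kb, 7 moved by more than 1 SD with the longest transcript as length. The differences of Dusp10, Dusp22 and Spry2 were not separable from the spread of these genes at 4 libraries a group.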
